A study of Mus musculus with 12 samples.

Results

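The genes described here are 10 of the 55487 in the gene table of a mouse retina RNA-seq experiment, taken by exact gene name: the metallothioneins Mt1, Mt2 and Mt3, the ferritin subunits Fth1 and Ftl1, the metal transporters Tfrc, Slc40a1 and Slc39a14, and the lipid peroxidation enzymes Gpx4 and Acsl4. All 10 passed the filter on low values, as did 16471 genes in all. The 12 libraries fall into 6 groups of 2: retinas of WT mice (B6J), of WT mice infected with AAV2.7m8 carrying a U6-driven short hairpin RNA against Pax6 (sh*Pax6*), and of mice lacking JNK3 (JNK3 KO, a Jnk3-/- line), each after PBS or 40 mM NMDA was injected into the vitreous in a volume of 1 μL. NMDA (40 nmol per eye) is an agonist of glutamate receptors that kills retinal ganglion cells (RGCs). Each library pooled more than 3 retinas, and AAV was given to mice 2 months of age. No retinas infected with a control vector are among the 12, so infection and Pax6 knockdown cannot be told apart. The labels do not name the animals behind each library, and p-values measure only the spread between these libraries.

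Metallothioneins are small cysteine-rich proteins that bind zinc and copper. Mt1 and Mt2 are induced in most tissues by metals, glucocorticoids and oxidative stress, partly through the metal-responsive factor MTF1, whereas Mt3 is the form best known from the nervous system. In the retina Müller glia are a known source of metallothioneins. Ferritin stores iron in a shell of heavy (Fth1) and light (Ftl1) subunits, Tfrc takes up transferrin-bound iron, Slc40a1 (ferroportin) exports iron and Slc39a14 (ZIP14) imports zinc and unbound iron. Iron regulatory proteins bind a hairpin called the iron-responsive element (IRE): in the 5′ UTR of ferritin and ferroportin mRNAs they block translation, and in the 3′ UTR of Tfrc mRNA they protect the transcript from decay. Ferroptosis is a form of cell death in which iron-dependent peroxidation destroys membrane lipids. Gpx4 reduces lipid peroxides and holds ferroptosis off, whereas Acsl4 loads membranes with the polyunsaturated lipids that are oxidized.

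Mt3, Mt2 and Mt1 lie in this order on chromosome 8 in the same orientation (GRCm38). Mt3 spans chr8:94152607-94154146, Mt2 chr8:94172664-94173568 and Mt1 chr8:94179082-94180327, with 18517 bases between Mt3 and Mt2 and 5513 between Mt2 and Mt1. The 250 bases before the RefSeq start (GRCm38.p6, plus strand) are shown because Mt1 and Mt2 followed each other closely in these libraries while Mt3 departed from them in sh*Pax6* and JNK3 KO retinas. Capitals mark the core of the metal response element bound by MTF1 (TGCNCNC, searched on both strands). The windows are chr8:94178839-94179088 for Mt1, chr8:94172368-94172617 for Mt2 and chr8:94152357-94152606 for Mt3.
Mt1: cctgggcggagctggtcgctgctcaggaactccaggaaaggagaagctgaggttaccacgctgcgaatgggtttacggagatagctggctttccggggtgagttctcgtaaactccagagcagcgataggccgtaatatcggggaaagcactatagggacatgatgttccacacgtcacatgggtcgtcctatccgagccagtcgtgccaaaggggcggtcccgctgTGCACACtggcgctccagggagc
Mt2: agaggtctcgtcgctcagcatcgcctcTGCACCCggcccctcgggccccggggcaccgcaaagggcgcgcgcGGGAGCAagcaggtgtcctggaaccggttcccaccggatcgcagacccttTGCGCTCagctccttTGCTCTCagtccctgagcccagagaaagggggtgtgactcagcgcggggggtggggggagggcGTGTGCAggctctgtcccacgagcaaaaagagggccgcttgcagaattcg
Mt3: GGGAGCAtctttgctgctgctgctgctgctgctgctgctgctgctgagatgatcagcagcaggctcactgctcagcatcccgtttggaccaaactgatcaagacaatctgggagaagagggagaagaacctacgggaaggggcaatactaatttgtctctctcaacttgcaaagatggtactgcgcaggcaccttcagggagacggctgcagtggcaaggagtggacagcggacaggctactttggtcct
The core occurred 5 times before Mt2 and once each before Mt1 and Mt3. Of 32851 promoters of this length, 44.41% held at least 1 core and 0.34% at least 5. In the first 250 bases of the annotated transcript the core occurred 5 times in Mt1-201, 3 times in Mt2-201 and 4 times in Mt3-201, so most Mt1 matches lay after the annotated start.

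The IRE was looked for in the most abundant transcript of 16443 genes as a CAGTGN loop (last base not G) on a stem of 5 base pairs with a bulged C below it and a further stem of at least 4 pairs in 5. It was found in 23 of them (0.14%), and 4 of the 10 genes were among these. The matches are printed with the loop in capitals because they divide the ferritin, transferrin receptor and ferroportin mRNAs from the other 6 genes, in whose most abundant transcript there was no match. They are read from the GENCODE M21 transcripts (GRCm38).
Fth1: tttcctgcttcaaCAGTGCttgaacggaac
Ftl1: tgtcttgcttcaaCAGTGTttgaacggaac
Slc40a1: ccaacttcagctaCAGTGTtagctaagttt
Tfrc hairpin 1: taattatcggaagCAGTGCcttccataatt
Tfrc hairpin 2: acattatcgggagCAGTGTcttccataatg
Tfrc hairpin 3: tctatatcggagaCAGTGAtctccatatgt
Tfrc hairpin 4: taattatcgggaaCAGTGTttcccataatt
The Fth1 hairpin covers chr19:9982731-9982760 on the plus strand and the Ftl1 hairpin chr7:45459779-45459808 on the minus strand, both in the 5′ UTR. That of Slc40a1 lies in its 5′ UTR at chr1:45925465-45925494 on the minus strand. The 4 matched Tfrc hairpins lie in the 3′ UTR on the plus strand between chr16:32631218-32631247 and chr16:32631709-32631738, and Tfrc was the only gene searched with 3 or more matches in its 3′ UTR. Hairpins that depart from the pattern were not looked for.

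In the same build the other 7 genes lie at chr19:9980598-9985098 (Fth1), chr7:45457944-45459884 (Ftl1), chr16:32608920-32632794 (Tfrc), chr1:45908068-45926523 (Slc40a1), chr10:80047166-80056439 (Gpx4), chrX:142317993-142390535 (Acsl4) and chr14:70303469-70351425 (Slc39a14).

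Some facts of the libraries bear on every value below. FPKM summed to 541210 to 576922 in 10 libraries and to 805627 and 820180 in the 2 WT NMDA libraries. The WT response to NMDA depended on gene length: its median on the log2 scale was 1.03 for the 2948 genes under 1 kb, -1.17 for genes over 4 kb, and 0.53 and -0.32 for the classes between, which meet at 2 kb. In sh*Pax6* the same medians ran from 0.18 under 1 kb to -0.07 over 4 kb, and in JNK3 KO from -0.11 to 0.16. Of the 10 genes, 6 are under 1 kb (Mt1, Mt2, Mt3, Gpx4, Fth1 and Ftl1, with 511 to 965 bases), and the other 4 have 2729 to 5188 bases. Most responses of the 10 genes are therefore also given after correcting every library for its trend on spliced length. Counts for lists and cell markers are as deposited unless the length correction is named. With values rescaled to TPM the median WT response of all genes moved from -0.09 to -0.68, so TPM values are given where they matter. Pax6 stood at 173 and 177 FPKM with PBS in WT retinas and at 94.6 and 92.8 in sh*Pax6* PBS. Under NMDA the order was reversed: both libraries labelled sh*Pax6* (67.5 and 58.7) lay above both of WT (55.4 and 53.8). Mapk10, which encodes JNK3, stood at 42.8 and 50.7 FPKM with PBS in WT retinas and at 9.47 and 8.75 in JNK3 KO PBS, but the JNK3 KO NMDA libraries (6.65 and 13.8) overlapped those of WT NMDA (8.98 and 6.00). Under NMDA the targeted genes thus do not check the labels, and Pax6 goes against its label. The names sh*Pax6* NMDA and JNK3 KO NMDA below stand for the libraries labelled so.

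The first question was how NMDA changed these genes in WT retinas. All 3 metallothioneins, both ferritin subunits and Gpx4 rose 3.5- to 5.1-fold, and Tfrc and Acsl4 fell. Thus 6 of 10 genes rose and 2 fell, with limma's adjusted p under 0.05, against 26% of all genes tested that rose and 33.8% that fell. The median change was 1.91 on the log2 scale, against -0.09 for all genes. After the length correction the same 6 rose and the same 2 fell, with a median of 1.08, against 27.3% and 20.1% of all genes.

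**Figure D1:**
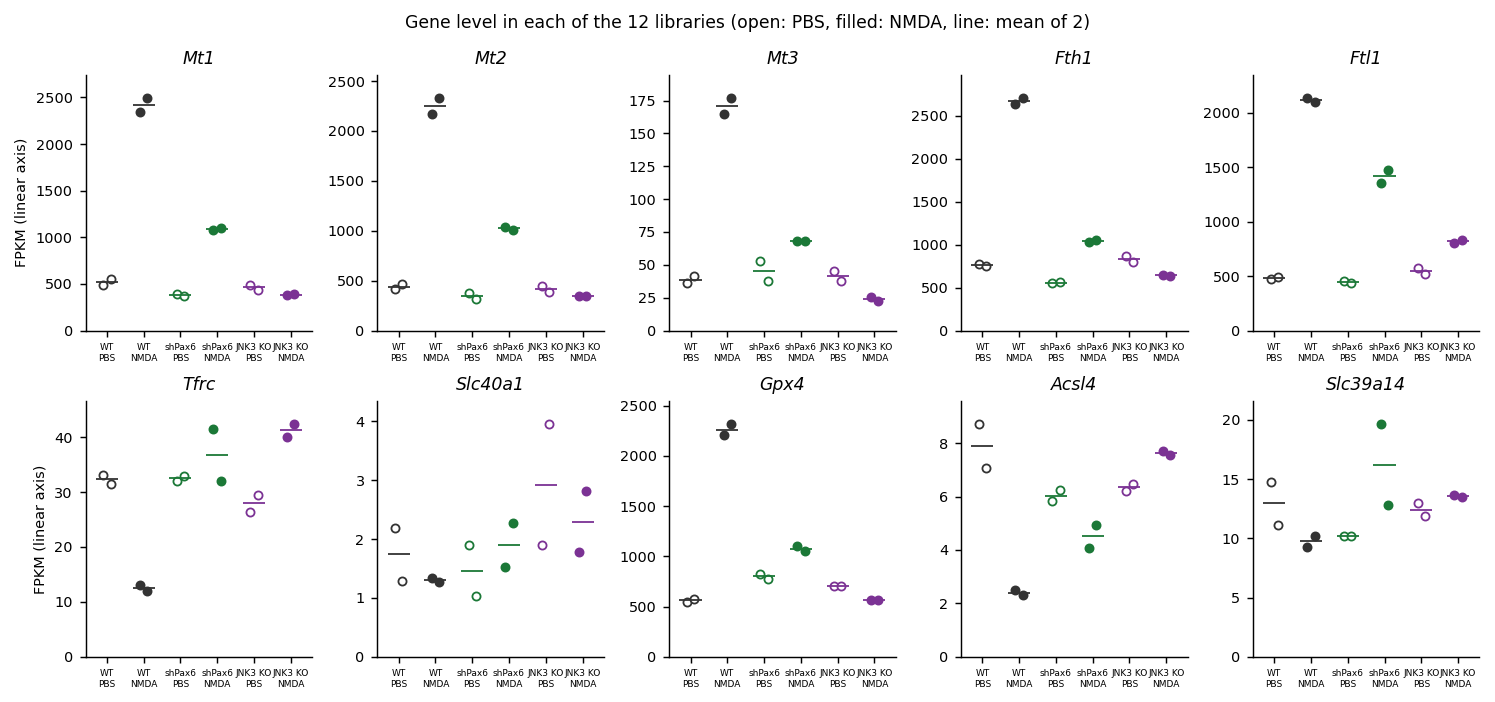
FPKM (linear axes from 0) of the 10 genes in each of the 12 libraries, with the genotype and the injection on the horizontal axis, open circles for PBS, filled circles for NMDA and a line for the mean of 2 libraries. The WT NMDA libraries lie above the other 10 for Mt1, Mt2, Mt3, Fth1, Ftl1 and Gpx4 and below them for Tfrc and Acsl4.

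Mt1 stood at 491 and 552 FPKM with PBS in WT retinas and at 2349 and 2497 in WT NMDA. Mt2 went from 416 and 463 to 2166 and 2332 FPKM. Mt3 went from 36.2 and 41.4 to 165 and 177 FPKM. For each metallothionein the PBS and NMDA libraries were far apart, and Mt3 was the least abundant of the 3 on the FPKM scale. The log2 fold change was 2.22 (SE 0.07, adjusted p = 3.24e-08) for Mt1, 2.36 (SE 0.09, adjusted p = 1.11e-07) for Mt2 and 2.14 (SE 0.16, adjusted p = 3.20e-06) for Mt3. Corrected for length these became 1.53, 1.72 and 1.48, and in TPM 1.64, 1.78 and 1.57, all with an adjusted p under 0.05. Among all genes under 1 kb the top decile of WT responses began at 2.35, so these responses lay near its border.

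Fth1, the subunit that oxidizes iron for storage, stood at 774 and 751 FPKM with PBS in WT retinas and at 2635 and 2706 in WT NMDA. Ftl1, the light subunit, went from 476 and 491 to 2139 and 2101 FPKM. Neither pair of groups overlapped, and the log2 fold change was 2.13 (SE 0.06, adjusted p = 2.09e-08) for the light and 1.81 (SE 0.05, adjusted p = 2.09e-08) for the heavy subunit. Length correction left 1.31 for Ftl1 and 0.98 for Fth1. The single transcripts Fth1-201 and Ftl1-201, which carry the IRE hairpins printed above, made up at least 97.8% of their gene's FPKM in these 4 libraries.

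Tfrc moved the opposite way to the ferritins. So did the medians of their length classes, 1.03 under 1 kb and -0.32 from 2 to 4 kb. Tfrc lies in the latter with 3874 bases, a mean over its transcripts weighted by FPKM. Its main form in WT PBS, Tfrc-201, has 4890 bases, and genes over 4 kb had a median of -1.17. A part of the IREs in these opposite changes was not tested. Tfrc stood at 33.1 and 31.5 FPKM with PBS in WT retinas and at 13.00 and 11.96 in WT NMDA, a log2 fold change of -1.37 (SE 0.12, adjusted p = 1.04e-05). The fall was smaller after the length correction (-0.57, adjusted p = 0.00277). It was made up unequally by its transcripts. Full-length Tfrc-201 went from 24.9 and 24.9 to 1.05 and 2.79 FPKM, whereas Tfrc-204, an annotated retained intron form, went from 2.55 and 2.38 to 10.98 and 9.18. Both of these transcripts carry the 4 matched hairpins, and RSEM divides reads that they share, so the split between them is less certain than the sum.

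The other transporters were not called. Slc40a1, the iron exporter, stood near the filter at 2.19 and 1.29 FPKM with PBS in WT retinas and at 1.34 and 1.27 in WT NMDA (log2 fold change -0.35, 95% interval -1.37 to 0.68, adjusted p = 0.543). Slc39a14 stood at 14.8 and 11.2 FPKM with PBS in WT retinas and at 9.29 and 10.2 in WT NMDA (-0.39, 95% interval -0.84 to 0.05, adjusted p = 0.116). Its groups did not overlap, and its sign depended on the scale: the log2 change was -0.97 in TPM and 0.49 after the length correction, of which the first passed the threshold (adjusted p = 0.00229) and the second did not (adjusted p = 0.061).

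Gpx4 went from 546 and 577 FPKM in WT PBS to 2207 and 2317 in WT NMDA, a log2 fold change of 2.01 (SE 0.05, adjusted p = 1.45e-08) and of 1.18 after the length correction. Part of this came from Gpx4-203, an annotated retained intron form of 280 bases. It went from 6.62 and 4.12 to 460 and 471 FPKM and then held 20.9% and 20.3% of the gene's FPKM. As FPKM divides by length, the share of reads of so short a form is not given by this. Its level was also uneven between the sh*Pax6* NMDA libraries (66.25 and 0 FPKM), so this part is less certain than the sum. The most abundant coding transcript, Gpx4-202, went from 306 and 314 to 1134 and 1123 FPKM. Acsl4 went from 8.71 and 7.06 FPKM in WT PBS to 2.49 and 2.32 in WT NMDA (log2 fold change -1.67, SE 0.16, adjusted p = 1.83e-05). Its corrected change was -0.52 (adjusted p = 0.0239). The 2 enzymes with opposite roles in ferroptosis thus moved in opposite directions, as did genes of their length: the median was 1.03 under 1 kb and -1.17 over 4 kb.

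In the libraries labelled sh*Pax6*, the metallothioneins, the ferritins, Gpx4 and Slc39a14 rose after NMDA, and no gene of the 10 passed the test for a fall. The counts were 7 higher and 0 lower, against 19.1% and 11% of all genes. At an unadjusted p under 0.05 in limma 7 were higher and 1 was lower, Acsl4, against 25.8% and 15.1%. The median was 0.62 against 0.10 for all genes. After the length correction 5 of the 10 were higher and 0 lower, against 12.6% and 18.4% of all genes.

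Mt1 stood at 387 and 373 FPKM in sh*Pax6* PBS and at 1075 and 1097 in sh*Pax6* NMDA. Mt2 went from 378 and 319.7 to 1041 and 1008 FPKM. Both rose 2.86- and 2.95-fold (log2 1.51, SE 0.07, adjusted p = 9.55e-07, and 1.56, SE 0.09, adjusted p = 5.83e-06), and by 0.75 each after the length correction. Mt3 went from 52.8 and 37.4 to 68.1 and 68.5 FPKM, with 1 PBS library well above the other. Its rise (0.62, SE 0.16, adjusted p = 0.0157) turned to -0.17 after the length correction (adjusted p = 0.486) and was no longer called when either sh*Pax6* NMDA library or the second sh*Pax6* PBS library was left out.

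Ftl1 had the largest log2 fold change of the 10 genes in sh*Pax6*, from 452 and 436 FPKM to 1354 and 1478 (log2 1.67, SE 0.06, adjusted p = 2.43e-07, corrected 1.26). Fth1 went from 548 and 561 to 1025 and 1056 FPKM (0.91, SE 0.05, adjusted p = 2.57e-06, corrected 0.49). Ftl1 thus overtook Fth1 in level in these libraries. Gpx4 went from 825 and 778 to 1106 and 1050.2 FPKM (0.43, SE 0.05, adjusted p = 0.000197), a rise that was -0.04 after the length correction. Slc39a14 went from 10.2 and 10.2 to 19.6 and 12.8 FPKM. Its call (0.63, SE 0.20, adjusted p = 0.0403) was lost in TPM (0.58, adjusted p = 0.0608) and was 0.32 (adjusted p = 0.206) without the first sh*Pax6* NMDA library. In all, 15 of 23 alternatives did not call it.

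Tfrc stood at 32.03 and 33.00 FPKM in sh*Pax6* PBS and at 41.5 and 32.0 in sh*Pax6* NMDA, with overlapping groups (0.16, 95% interval -0.11 to 0.43, adjusted p = 0.341). Without the second NMDA library its change was 0.35 and was called (adjusted p = 0.0264). Acsl4 went from 5.84 and 6.23 to 4.07 and 4.94 FPKM (-0.42, 95% interval -0.78 to -0.06, adjusted p = 0.0787), which 4 alternatives called, among them the fit without the second NMDA library (-0.56, adjusted p = 0.0363). Slc40a1 stood at 1.89 and 1.04 FPKM under PBS and at 1.53 and 2.28 under NMDA, and the difference was not detectable (0.39, 95% interval -0.64 to 1.41, adjusted p = 0.564).

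In the libraries labelled JNK3 KO most of these genes went the other way or were not called. Ftl1 and Tfrc rose, and Mt1, Mt3, Fth1 and Gpx4 fell. The counts were 2 higher and 4 lower of 10, against 4.33% and 6.1% of all genes, with a median of -0.27 against -0.01. After the length correction the 2 rises were still called and none of the 4 falls was, against 3.79% of all genes higher and 4.61% lower. Fewer of the 10 genes, and also fewer of all genes, were called when any 1 of the 4 JNK3 KO libraries was left out.

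**Figure D2:**
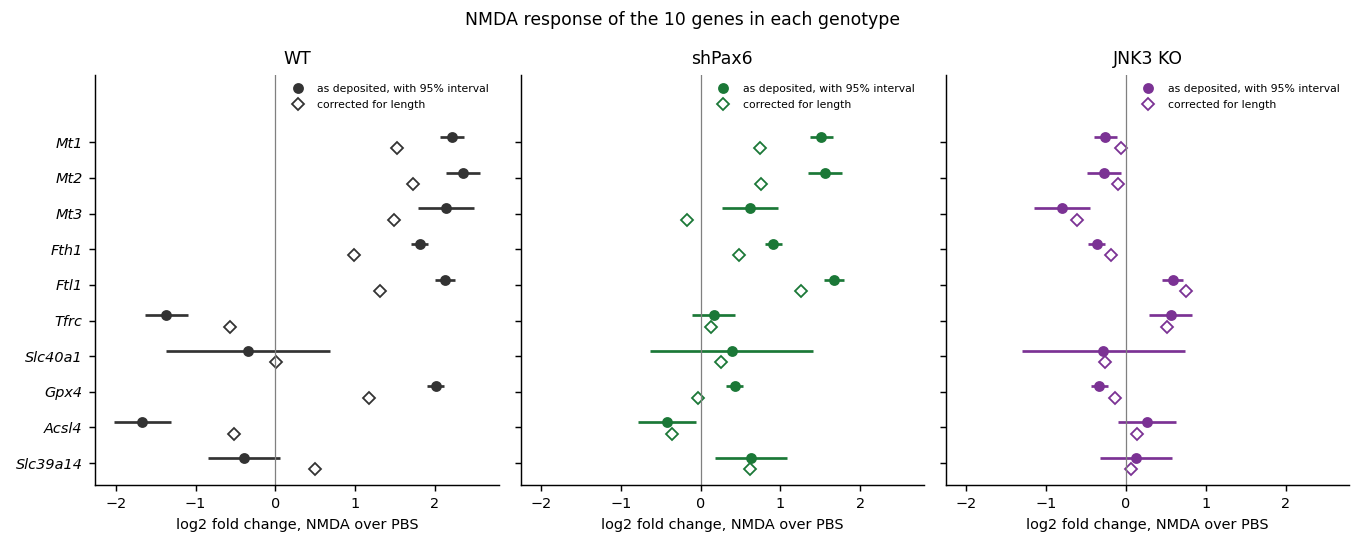
Log2 fold change of NMDA over PBS for the 10 genes in WT, sh*Pax6* and JNK3 KO retinas, with filled circles and 95% intervals for the deposited scale and open diamonds for values corrected for gene length. Ftl1 lies above 0 in all 3 genotypes by both measures, at 2.13, 1.67 and 0.58 as deposited.

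Ftl1 went from 572 and 523 FPKM in JNK3 KO PBS to 808 and 831 in JNK3 KO NMDA (log2 0.58, SE 0.06, adjusted p = 0.000436, corrected 0.75). Fth1 went from 870.1 and 796 to 652 and 636 FPKM (-0.37, SE 0.05, adjusted p = 0.00178, corrected -0.19 with adjusted p = 0.0775). The 2 subunits of ferritin therefore moved in opposite directions in the same libraries. Tfrc rose from 26.4 and 29.5 to 40.1 and 42.4 FPKM (0.56, SE 0.12, adjusted p = 0.0196, corrected 0.51). This call was lost when any 1 of the 4 JNK3 KO libraries was left out, with values of 0.48 to 0.64 then.

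Mt1 stood at 486 and 439.9 FPKM in JNK3 KO PBS and at 386 and 387 in JNK3 KO NMDA (-0.26, SE 0.07, adjusted p = 0.0399, corrected -0.06), a call that 16 of 23 alternatives did not make. Mt2 stood at 446 and 383 and at 342 and 342 FPKM (-0.27, SE 0.09, adjusted p = 0.108). Mt3 went from 45.5 and 37.9 to 25.2 and 22.5 FPKM (-0.80, SE 0.16, adjusted p = 0.0134, corrected -0.61 with adjusted p = 0.0607). For each metallothionein both NMDA libraries lay below both PBS libraries. With 2 libraries against 2 this is a description only, and the share of all genes separated in this way was not counted. Gpx4 went from 709.6 and 708 to 562 and 563 FPKM (-0.33, SE 0.05, adjusted p = 0.00301, corrected -0.13 with adjusted p = 0.0798). Acsl4 stood at 6.22 and 6.48 and at 7.69 and 7.57 FPKM (0.26, 95% interval -0.10 to 0.62), Slc39a14 at 12.99 and 11.86 and at 13.7 and 13.5 (0.13, 95% interval -0.32 to 0.57), and neither was called. Slc40a1 stood at 1.90 and 3.95 FPKM under PBS and at 1.78 and 2.81 under NMDA, with overlapping groups.

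**Figure D3:**
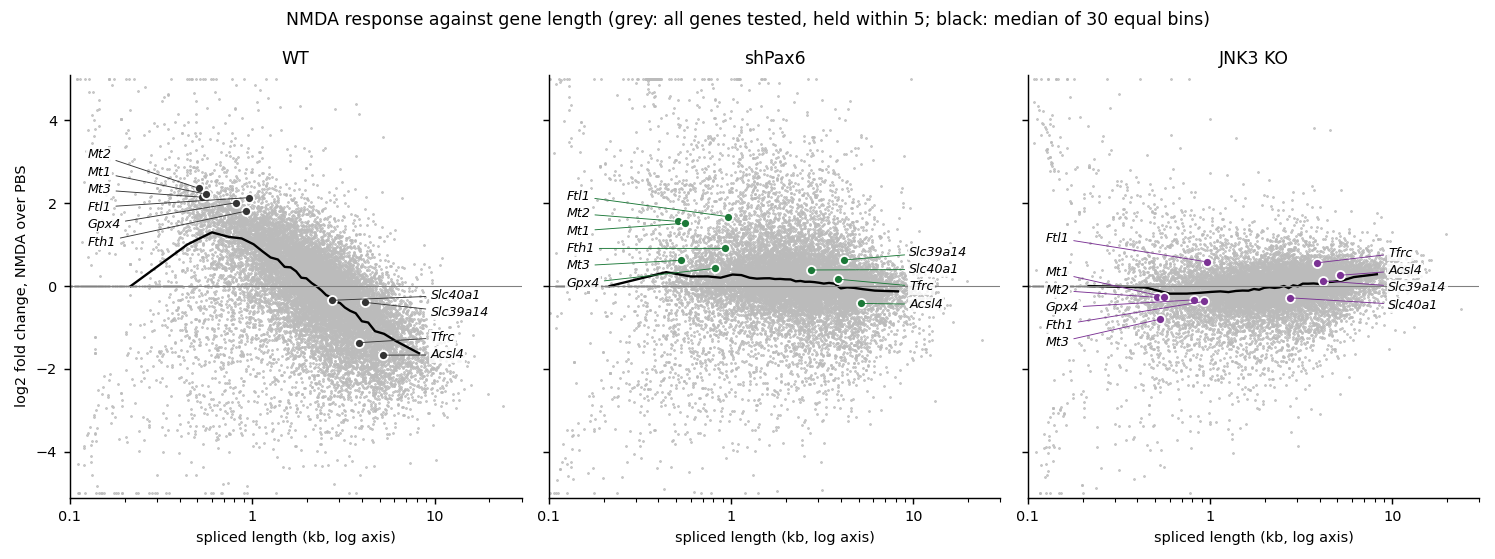
Log2 fold change of NMDA over PBS against spliced length (log axis, kb) for all genes tested (grey, held within 5 on the vertical axis), with the median of 30 equal bins as a black line and the 10 genes as labelled circles, in WT, sh*Pax6* and JNK3 KO retinas. In WT the median falls with length, from 1.03 under 1 kb to -1.17 over 4 kb, and the 6 short genes lie above the line.

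The difference between the responses was tested directly. Its direction rests on the labels of the NMDA libraries, in which Pax6 and Mapk10 did not separate the genotypes as labelled. Compared with WT, the response in JNK3 KO was lower for the 3 metallothioneins, both ferritins and Gpx4 and higher for Tfrc and Acsl4. That is 2 genes higher and 6 lower of 10, against 27.9% and 23.5% of all genes, and the counts were the same after the length correction, against 14.9% and 20.6%. The differences of log2 fold change (JNK3 KO minus WT) were -2.48 for Mt1, -2.63 for Mt2, -2.94 for Mt3, -2.18 for Fth1, -1.55 for Ftl1 and -2.34 for Gpx4. Of these 6, that of Ftl1 turned to 0.09 under quantile normalization, while the other 5 stayed between -3.07 and -0.91 in all 23 alternatives. The differences were 1.92 for Tfrc and 1.93 for Acsl4.

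For sh*Pax6* against WT the response was higher for 3 genes (Tfrc, Acsl4 and Slc39a14, the last of these 0.82 and not called, adjusted p = 0.0611, without the first WT PBS library) and lower for 6, against 31.4% and 18.3% of all genes. After the length correction 1 was higher (Tfrc, 0.70) and 5 were lower, against 14.8% and 23.9%. The largest differences (sh*Pax6* minus WT) were -1.58 for Gpx4, -1.52 for Mt3 and 1.53 for Tfrc, and these 3 kept their sign in all 23 alternatives. The difference was -0.90 for Fth1 and fell to -0.07 under quantile normalization. For Mt1 (-0.70), Mt2 (-0.80) and Ftl1 (-0.46) the sign depended on the scaling. Under quantile normalization it turned to 0.31, 0.45 and 0.77, all 3 called in limma (adjusted p = 0.0297, 0.00547 and 3.77e-05). In TPM the differences were -0.18, -0.27 and 0.06, none of them called. The sh*Pax6* and JNK3 KO differences share the 4 WT libraries.

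Under PBS the genotypes differed less. Against WT, sh*Pax6* retinas had more Gpx4 (log2 0.51, SE 0.05, adjusted p = 0.000161, corrected 0.61) and less Fth1 (-0.46, adjusted p = 0.000296, corrected -0.39), Mt1 (-0.45, adjusted p = 0.00198, corrected -0.27) and Mt2 (-0.34, adjusted p = 0.0408, corrected -0.15 with adjusted p = 0.397). The Mt2 call was lost in 14 of 23 alternatives, among them the fit without the second sh*Pax6* PBS library (-0.22, adjusted p = 0.185). That is 1 gene higher and 3 lower, against 5.36% and 11.2% of all genes. JNK3 KO retinas had more Gpx4 (0.34, SE 0.05, adjusted p = 0.0174). This was not called after the length correction (0.20, adjusted p = 0.0882), nor without any 1 of the 4 PBS libraries compared (0.30 to 0.38), nor without either JNK3 KO NMDA library. It was the 1 gene called of 10, with 0 lower in limma, against 1.1% of all genes higher and 0.407% lower. At an unadjusted p under 0.05 in limma 3 of the 10 genes were higher, Gpx4, Ftl1 (0.18) and Fth1 (0.13), and 1 was lower, Mt1 (-0.17), against 9.16% and 5.97% of all genes.

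Over the 6 groups, the levels of Mt1 and Mt2 were highest in WT NMDA, then in sh*Pax6* NMDA, then in the PBS groups and JNK3 KO NMDA. JNK3 KO NMDA and sh*Pax6* PBS overlapped for both genes at the bottom of this order. Ftl1 had the order WT NMDA, sh*Pax6* NMDA and JNK3 KO NMDA above all 6 PBS libraries. Fth1 had WT NMDA and sh*Pax6* NMDA first, then the JNK3 KO and WT PBS groups, and was lowest in sh*Pax6* PBS. Gpx4 was lowest in WT PBS and JNK3 KO NMDA, whose libraries overlapped. For Tfrc, 10 libraries lay between 26.4 and 42.4 FPKM, and only the 2 WT NMDA libraries lay below.

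A ratio of 2 genes within a library is free of the library's scaling. Fth1 over Ftl1 was 1.63 and 1.53 in WT PBS and 1.23 and 1.29 in WT NMDA. It was 1.21 and 1.29 in sh*Pax6* PBS and 0.757 and 0.714 in sh*Pax6* NMDA. In JNK3 KO it was 1.52 in both PBS libraries and 0.807 and 0.766 under NMDA. The balance of ferritin mRNAs thus lay further towards the light subunit after NMDA in every genotype, with no overlap between the libraries, and the log2 change was -0.32 in WT, -0.76 in sh*Pax6* and -0.95 in JNK3 KO. With 2 libraries against 2 an exact permutation test cannot pass the threshold and none was made. Mt3 over Mt1 also lay lower after NMDA in each genotype (log2 change -0.07, -0.89 and -0.54). Mt1 over Mt2 stayed between 1.03 and 1.19 in all 12 libraries.

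**Figure D4:**
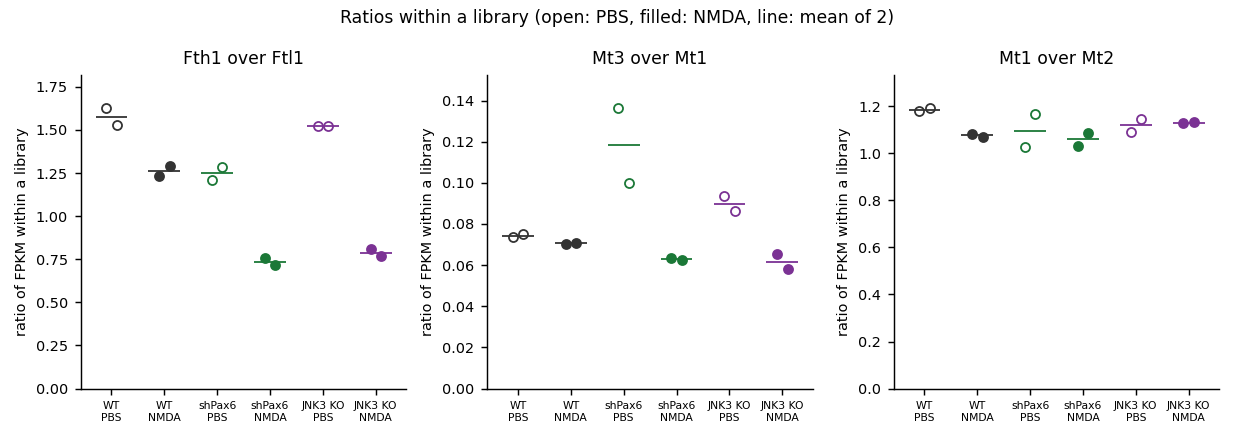
Ratio of FPKM within each library (linear axes from 0) for Fth1 over Ftl1, Mt3 over Mt1 and Mt1 over Mt2 in the 6 groups, with open circles for PBS, filled circles for NMDA and a line for the mean of 2 libraries. The ferritin ratio is lower after NMDA in WT, sh*Pax6* and JNK3 KO retinas, and Mt1 over Mt2 stays between 1.03 and 1.19.

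Across the 12 libraries the gene whose log2 level was most like that of Mt1 was Mt2 and the reverse (Pearson r = 0.998, among 13889 protein-coding genes). This is a description: the 12 points share the strong WT NMDA pair and the length trend. The next gene was Tspan17 for Mt1 (0.986) and Fndc4 for Mt2 (0.985). Mt3 was nearest to Stard10 (0.988) and Ndufv3 (0.980), not to its neighbours on the chromosome. Fth1 was nearest to Rsrp1 (0.992) and Sh3bgrl3 (0.991), Ftl1 to Tnfrsf12a (0.985) and Pfn1 (0.981), and Gpx4 to Pitpnm1 (0.996) and Hint2 (0.990). Tfrc was nearest to Ankhd1 (0.992) and Csnk1a1 (0.991), and Acsl4 to Pclo (0.988) and Syt1 (0.987). Slc39a14 was nearest to D2hgdh (0.949) and Gab1 (0.945), and the low Slc40a1 to Gm45234 (0.870) and Npas3 (0.822).

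The other genes of these pathways moved in both directions. In the 4 lists that follow, the gene said to have risen or fallen most is the one with the largest change among called genes with a mean above 1 FPKM in both groups compared. Called genes that moved further but lay under this level in a group were Scd1 (-1.85) and Gch1 (1.62) in WT, Ptgs2 (2.89) and Tfr2 (-2.13) in sh*Pax6* and Hp (-3.57) in JNK3 KO. Of 38 other iron handling genes 32 were tested, and after NMDA 13 rose and 10 fell in WT, 11 rose and 4 fell in sh*Pax6*, and 3 rose and 6 fell in JNK3 KO. Their medians were 0.13, 0.26 and 0.01. The shares were 40.6% and 31.2% in WT, where 26% of all genes rose and 33.8% fell, 34.4% and 12.5% in sh*Pax6* (19.1% and 11% of all genes), and 9.38% and 18.8% in JNK3 KO (4.33% and 6.1%). After the length correction 9 rose and 10 fell in WT, where 27.3% of all genes then rose and 20.1% fell. Hmox1, which frees iron from heme, rose most in each genotype. It went from 10.8 and 10.4 to 43.7 and 42.9 FPKM in WT (log2 2.02, adjusted p = 1.07e-06), from 5.84 and 7.74 to 115 and 114 in sh*Pax6* (4.07, adjusted p = 1.98e-07) and from 17.04 and 15.14 to 36.3 and 37.5 in JNK3 KO (1.19, adjusted p = 0.000598). Ireb2, which encodes an iron regulatory protein that binds the hairpins printed above, fell most in WT, from 17.3 and 17.2 to 3.46 and 5.15 FPKM (-2.01, adjusted p = 5.55e-06, corrected -0.77 with adjusted p = 0.00279). Lcn2, an iron-siderophore binding protein made in inflammation, fell most in JNK3 KO, from 586 and 563 to 129.7 and 137 FPKM (-2.11, adjusted p = 8.80e-08). Slc22a17, a receptor for lipocalin 2, fell most in sh*Pax6* (-0.72, adjusted p = 0.00056).

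All 29 other genes that protect from ferroptosis were tested. In WT 10 rose and 7 fell (median -0.02), in sh*Pax6* 12 rose and 1 fell (0.18), and in JNK3 KO 3 rose and 2 fell (0.08). Against the same shares of all genes, 34.5% rose and 24.1% fell in WT, 41.4% and 3.45% in sh*Pax6*, and 10.3% and 6.9% in JNK3 KO. After the length correction 10 rose and 5 fell in WT. The small heat shock protein gene Hspb1 rose most in sh*Pax6*, from 7.44 and 5.25 to 76.9 and 61.2 FPKM (3.43, adjusted p = 1.10e-05). It also rose most in WT (1.19, adjusted p = 0.00177), but not after the length correction there (0.36, adjusted p = 0.217). Acsl3, which activates monounsaturated fatty acids, fell most in WT, from 88.1 and 90.6 to 31.4 and 31.8 FPKM (-1.50, adjusted p = 8.82e-07, corrected -1.13 with adjusted p = 1.49e-05). Fdft1, of sterol synthesis, fell in sh*Pax6* (-0.39, adjusted p = 0.0118). In JNK3 KO Mboat2, a lysophospholipid acyltransferase, rose most (0.86, adjusted p = 0.0185) and Gsr, glutathione reductase, fell most (-0.57, adjusted p = 0.0331).

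Of 28 other genes that promote ferroptosis 24 were tested. In WT 9 rose and 7 fell (median 0.37), in sh*Pax6* 6 rose and 1 fell (0.25), and in JNK3 KO 3 rose and 3 fell (-0.01). As shares these were 37.5% and 29.2%, 25% and 4.17%, and 12.5% in each direction. After the length correction 6 rose and 7 fell in WT. Ebp, a sterol isomerase, rose most in WT (1.72, corrected 1.23), and Bach1, a repressor of Hmox1 and ferritin genes, fell most there (-2.17, corrected -0.95). Cybb, the phagocyte NADPH oxidase subunit, rose most in sh*Pax6*, from 1.34 and 2.42 to 9.09 and 4.54 FPKM (1.78, adjusted p = 0.00667), and Tfap2a fell (-1.76, adjusted p = 0.000234). In JNK3 KO Chac1, which degrades glutathione, rose from 1.97 and 1.79 to 4.99 and 4.91 FPKM (1.35, adjusted p = 0.0184), and the glutaminase gene Gls2 fell (-1.18, adjusted p = 0.0321).

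Of 32 other metal response and zinc transport genes 27 were tested. In WT 7 rose and 9 fell (median -0.11), which became 13 and 5 after the length correction. In sh*Pax6* 7 rose and 1 fell (0.19), and in JNK3 KO 2 rose and 2 fell (0.04). The shares were 25.9% and 33.3% in WT, near the 26% and 33.8% of all genes, 25.9% and 3.7% in sh*Pax6*, and 7.41% in each direction in JNK3 KO. Atox1, a copper chaperone, rose most in WT, from 55.4 and 61.3 to 183 and 199 FPKM (1.71, corrected 1.04), and fell in JNK3 KO (-0.47, adjusted p = 0.0449, corrected -0.28 with adjusted p = 0.263). The zinc importer gene Slc39a10 fell most in WT, from 17.5 and 18.1 to 2.87 and 2.79 FPKM (-2.61, corrected -1.49). The zinc exporter gene Slc30a1, a known target of MTF1, rose most in JNK3 KO, from 5.94 and 4.41 to 9.30 and 9.33 FPKM (0.85, adjusted p = 0.00804). In sh*Pax6* the copper transporter gene Atp7a rose most (0.85, adjusted p = 0.0376) and Slc30a9 fell (-0.29, adjusted p = 0.012).

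**Figure D5:**
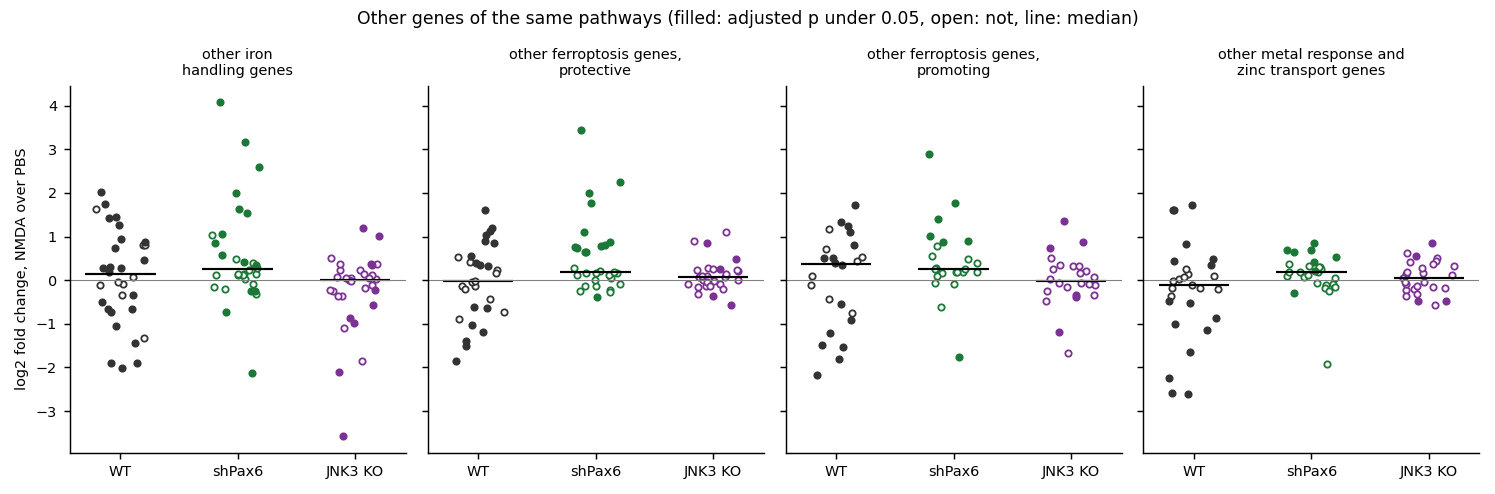
Log2 fold change of NMDA over PBS for the tested genes of 4 lists of related genes in WT, sh*Pax6* and JNK3 KO retinas, with filled circles for an adjusted p under 0.05 in limma, open circles for the rest and a line for the median. The medians lie between -0.11 and 0.37, and the highest point is Hmox1 in sh*Pax6*, at 4.07.

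Markers of other cells moved with these changes. In bulk retina fewer cells of a type and less RNA per cell cannot be told apart. The 9 neutrophil and monocyte markers summed to 337 and 373 FPKM in WT PBS and to 2126 and 2165 in WT NMDA, to 46.3 and 45.2 and then 353 and 365 in sh*Pax6*, and to 257 and 262 and then 81.3 and 82.2 in JNK3 KO. Most of the WT NMDA sum was S100a8 (645 and 721 FPKM) and S100a9 (1146 and 1115 FPKM). In WT 4 of the 9 rose and 2 fell (3 and 1 after the length correction), in sh*Pax6* all 9 rose and in JNK3 KO 1 rose and 7 fell. The 8 erythrocyte markers found in the table summed to 97.3 and 107 FPKM in WT PBS and to 613 and 650 in WT NMDA, nearly all of it globins, with the membrane marker Slc4a1 listed at 0 in these 4 libraries. In sh*Pax6* their sums were 50.3 and 28.7 under PBS and 129 and 120.0 under NMDA, and in JNK3 KO they were 127 and 123 and then 69.4 and 79.7. These 2 sums thus lay higher after NMDA in WT and sh*Pax6* and lower in JNK3 KO, as did the sum of microglia and macrophage markers given below. Mt1, Mt2, Mt3, Fth1 and Gpx4 had the same directions on the deposited scale (Mt2 not called in JNK3 KO), whereas Ftl1 rose in each genotype. After the length correction none of the falls of these genes in JNK3 KO was called. In sh*Pax6* Mt3 and Gpx4 then stood at -0.17 and -0.04.

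The 10 Müller glia markers, none of them listed at 0 in any library, summed to 993 and 1021 FPKM in WT PBS and to 1529 and 1548 in WT NMDA. Vim alone went from 339 and 368 to 1154 and 1169, and 2 of the 10 rose and 6 fell (3 and 4 after the length correction). The corresponding sums were 1103 and 1067 and then 1249 and 1340 in sh*Pax6*, and 1065 and 1081 and then 1251 and 1288 in JNK3 KO. Of the 10 gliosis markers 3 rose and 6 fell in WT, all rose in sh*Pax6*, and 2 rose and 4 fell in JNK3 KO. After the length correction 5 gliosis markers rose and 4 fell in WT, with a median of 0.26 instead of -0.42. In JNK3 KO 1 then rose and 4 fell. Of all genes in WT 26% rose and 33.8% fell as deposited, and 27.3% and 20.1% after the correction. The 12 RGC markers summed to 693 and 719 FPKM in WT PBS and 441 and 461 in WT NMDA, to 235 and 231 and then 100.6 and 85.3 in sh*Pax6*, and to 714 and 669 and then 199 and 199 in JNK3 KO. This sum was lower after NMDA in each genotype. Of the 12 markers 9 fell and 1 rose in WT (Stmn2, named after its values were seen, from 44.4 and 47.8 to 66.6 and 75.5 FPKM), and 8 fell in each of the other genotypes. The part of these cells in the changes described here was not tested.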

How the data were processed

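Poly(A) RNA of 12 mouse retina libraries was sequenced. According to the labels and methods, the authors aligned reads to GRCm38.p6 with STAR 2.7.1a, estimated abundance with RSEM 1.3.3 and deposited gene and transcript FPKM with 2 decimals, so the reads behind a value are unknown and precision rests on the replicates (typical log2 difference within a group, as a median over genes, 0.11 to 0.25). The deposited FPKM were analysed as log2(FPKM + 0.1), which understates changes of low genes. Genes whose mean exceeded 1 FPKM in any of the 6 groups were kept. A single limma 3.58.1 model (R 4.3.3, intensity trend) held the 6 group means and left 6 residual degrees of freedom. Calls have a Benjamini-Hochberg adjusted p under 0.05 over all 16471 genes. The length correction subtracted a lowess trend (span 0.3) on log2 spliced length from each library, with lengths from GENCODE M21 (99.53% of genes matched). The length of a gene was the mean over its transcripts, weighted by their mean FPKM. In all, 7 comparisons and 24 alternative settings were run and the fit was tested on simulated data. Named genes were the 10, the list genes with the largest rise and fall per response among those called whose mean exceeded 1 FPKM in each group compared, and the 2 protein-coding genes most correlated with each of the 10. The 10 genes and all lists were chosen with earlier results of these data known. Promoters came from RefSeq (8 of the 10 genes had an entry) and transcript sequences from GENCODE M21. Figures used Python 3.11.15 and matplotlib 3.10.9. The authors' ChIP-seq data were not analysed here.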

Additional observations from a re-analysis of the deposited data

Results flagged for a closer look

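The response to NMDA of 8 genes differed between JNK3 KO and WT by the test of the difference itself in limma. It was higher for 2 and lower for 6, against 27.9% and 23.5% of all genes. The difference of log2 fold change (JNK3 KO minus WT) was -2.48 for Mt1 (adjusted p = 3.54e-07), -2.63 for Mt2 (9.71e-07), -2.94 for Mt3 (7.07e-06), -2.18 for Fth1 (2.58e-07), -1.55 for Ftl1 (9.72e-07), -2.34 for Gpx4 (2.58e-07), 1.92 for Tfrc (1.77e-05) and 1.93 for Acsl4 (0.000102). For Fth1, Mt1, Mt3 and Gpx4 the 2 genotypes moved in opposite directions, both called, whereas Ftl1 rose in both. After the length correction none of these 4 falls in JNK3 KO was called (Mt1 -0.06, adjusted p = 0.667, Mt3 -0.61, adjusted p = 0.0607, Fth1 -0.19, adjusted p = 0.0775, and Gpx4 -0.13, adjusted p = 0.0798), and that of Mt1 was lost in 16 of 23 alternatives.

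The response of 9 genes differed between sh*Pax6* and WT by the same test. It was higher for 3 and lower for 6, against 31.4% and 18.3% of all genes. The difference (sh*Pax6* minus WT) was -0.70 for Mt1 (adjusted p = 0.000295), -0.80 for Mt2 (0.00112), -1.52 for Mt3 (0.000483), -0.90 for Fth1 (1.24e-05), -0.46 for Ftl1 (0.00125), -1.58 for Gpx4 (9.66e-07), 1.53 for Tfrc (0.000104), 1.25 for Acsl4 (0.0017) and 1.02 for Slc39a14 (0.0141). Most of these genes moved the same way in both genotypes and differed in size. After the length correction, 3 of the 9 were no longer called: Ftl1 (-0.05), Acsl4 (0.16) and Slc39a14 (0.13). Under quantile normalization Mt1 (0.31), Mt2 (0.45) and Ftl1 (0.77) were called in the opposite direction.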

How the results depend on the processing

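Over 23 settings of scale, filter, model and library, 1610 values of single genes were compared with those reported: 1509 stayed on their side of the threshold with no called value reversed (29 of these changed sign while not called before or after), 83 lost the call, 11 gained it and 7 reversed. The cause was not tested. The reversals were, for sh*Pax6* minus WT, Ftl1 in TPM (0.06) and Mt1 (0.31), Mt2 (0.45) and Ftl1 (0.77) under quantile normalization, for JNK3 KO minus WT, Ftl1 under quantile normalization (0.09), and for NMDA in sh*Pax6*, Mt3 (-0.17) and Gpx4 (-0.04) after the length correction. Those under quantile normalization for sh*Pax6* minus WT were called in the reversed direction, and the others were not called there. With the spread taken from the groups compared alone, the number of genes called of 10 went from 7 to 4 for NMDA in sh*Pax6*, from 6 to 3 for NMDA in JNK3 KO, from 4 to 1 for sh*Pax6* against WT under PBS and from 1 to 0 for JNK3 KO against WT under PBS. Of all genes, the shares higher and lower went from 19.1% and 11% to 4.1% and 1.83% for NMDA in sh*Pax6*, and from 4.33% and 6.1% to 3.89% and 5.68% in JNK3 KO. Under PBS they went from 5.36% and 11.2% to 1.74% and 3.65% for sh*Pax6*, and from 1.1% and 0.407% to 0.0486% and 0.0243% for JNK3 KO. The count for JNK3 KO against WT under PBS was also 0 without the intensity trend and after the length correction, which left 2 for NMDA in JNK3 KO. For the former comparison 0.121% of all genes were higher and 0.0911% lower without the trend, and 0.426% and 0.182% after the correction. At an unadjusted p under 0.05 and an absolute log2 fold change above 1 the counts were 8 in WT, 3 in sh*Pax6*, 0 in JNK3 KO, 0 and 0 under PBS, and 5 and 8 for the differences of response. The shares of all genes under this rule were not computed, so these counts have nothing to be set against.
Leaving out each library in turn changed the number of the 10 genes called in every comparison but JNK3 KO minus WT. The shares of all genes called moved too, so these numbers are not read as a trait of the 10 genes. Here a lone library was assumed to vary like the other groups. The replicate numbers do not pair the libraries (correlations of deviations -0.0973 to 0.0858), and with a replicate block 8, 7, 5, 3, 1, 9 and 8 genes were called in the 7 comparisons. With this block 25.7% of all genes rose and 33.5% fell in WT, 18.6% and 10.6% in sh*Pax6*, and 3.7% and 5.55% in JNK3 KO. Under PBS the shares were 4.82% and 10.4% for sh*Pax6* and 0.722% and 0.206% for JNK3 KO. For the differences they were 30.7% and 17.9% (sh*Pax6*) and 27.3% and 23.4% (JNK3 KO). Without counts, depth limits cannot be given, and Slc40a1, at 1.04 to 3.95 FPKM, has the widest intervals.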

Other observations

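Other cell markers gave further values for the same libraries. The 10 gliosis markers summed to 1482 and 1519 FPKM in WT PBS and to 1565 and 1504 in WT NMDA, to 1088 and 1045 and then 3192 and 3201 in sh*Pax6*, and to 1310 and 1294 and then 610.3 and 621 in JNK3 KO. Lcn2 held the largest part of this sum in WT, with 774 and 805 FPKM under PBS and 934 and 873 under NMDA, and its fall in JNK3 KO (586 and 563 to 129.7 and 137) and that of Timp1 (211 and 211 to 18.2 and 18.4) made up most of the lower sum there, while Cd44 went from 15.6 and 17.1 to 43.5 and 42.9. The 12 microglia and macrophage markers summed to 102 and 111 FPKM in WT PBS and 299 and 297 in WT NMDA, to 209.9 and 191 and then 692 and 682 in sh*Pax6*, and to 117 and 113 and then 98.7 and 91.4 in JNK3 KO. Of these 12, 7 rose and 3 fell in WT (4 and 2 after the length correction), 8 rose in sh*Pax6*, and 2 rose and 3 fell in JNK3 KO. Of the 9 rod markers all were higher in sh*Pax6* than in WT under PBS, and after NMDA 8 fell in sh*Pax6* and 7 in JNK3 KO, while in WT 5 rose and 2 fell.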
